A study of Papio anubis with 767 samples.

Results

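PDK4, KLF15, UCP3, CPT1B, CPT1A, ACADM, ANGPTL4 and PPARGC1A are 8 genes of the fasting response and of fat burning. They were picked by gene symbol, and each had 1 row in a table of 29202 rows, 20432 of which carried a symbol. Values were FPKM, fragments per kilobase of transcript scaled to the depth of the library, which corrects for gene length. The study measured polyadenylated RNA in 64 tissues of 12 male baboons, named Papio anubis hamadryas in the labels, which were 5 to 6 years old and weighed 7 to 11 kg. Lights were on for 12 h and off for 12 h, and the animals ate fruit and primate pellets at 9:00 and 15:00. One animal was killed with sodium pentobarbital and perfused with ice-cold Ame's solution at each of 12 times, every 2 h from ZT0 to ZT22 (zeitgeber time, by convention counted from lights on). The labels name no genotype or treatment groups. The clock hour of ZT0 is not given there, so the meals could not be placed on the ZT axis. With 1 animal per time, time of day and the individual animal cannot be told apart, and p-values measure the scatter of 12 animals around a 24 h curve or around a mean.

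After a meal many tissues burn more glucose, and between meals they turn to fatty acids. PDK4 is part of this switch, a kinase of the mitochondrial matrix that shuts off the pyruvate dehydrogenase complex and so spares glucose. Fatty acids enter mitochondria through the CPT1 enzymes, are broken down by acyl-CoA dehydrogenases such as ACADM, and are supplied from blood fat by lipoprotein lipase, which ANGPTL4 inhibits. KLF15 and PPARGC1A are regulators of transcription that respond to fasting and, in the case of KLF15, to glucocorticoids.

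Tissues were grouped into 6 classes, with 1 value per animal: the heart, skeletal muscle (abdominal muscle and gastrocnemius), kidney (cortex and medulla), the liver, white fat (mesenteric, pericardial, perirenal and subcutaneous depots and a depot labelled only white adipose tissue) and the brain (22 regions). Omental fat was described apart. Together these were 34 tissues and 408 libraries.

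The libraries held about 1045000 to 24098000 reads in the 12 labels outside the brain, with a median of 8779400, and 32790 to 21353000 reads in brain regions, with a median of 6848600, as recovered from the deposited values. By marker genes, 24 of the 408 libraries held another tissue's markers, and 9 resembled another animal than the labelled one. Liver libraries of ZT0 and ZT6 had summed neuron markers of 746 and 878 FPKM, against 1.03 to 3.65 FPKM at the other times, and kidney medulla libraries of ZT0, ZT6 and ZT8 had 585, 1099 and 572 FPKM, against 2.72 to 16.6 FPKM. In the liver libraries of ZT0 and ZT6 hepatocyte markers summed to 38551 and 15313 FPKM, against 200818 to 532259 FPKM at the other times. In pericardial fat, lymphocyte markers exceeded adipocyte markers in 8 of 12 libraries. The measure compares a library with the median of its tissue, so in this depot it counted the 4 libraries rich in adipocyte markers among the 24 and not the 8 others. The main axis along which libraries of 1 tissue differed from each other, found by principal component analysis and called the library component here, took 30.9% of the variance of 12025 genes, and in the heart its score was 2.14 at ZT4 and −2.83 at ZT22. Averaged over the libraries of an animal, this score was 0.798 to 0.974 at ZT2 to ZT6 and −0.727 to −1.01 at ZT18 to ZT22, with −0.0494 at ZT0. In liver, heart, skeletal muscle, kidney, white fat and brain alike it was higher at ZT4 than at ZT22. As the component changed with ZT, fits that hold it constant do not separate it from time of day. In bulk tissue, fewer cells of a type and less RNA per cell cannot be told apart.

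The first question was where these genes are expressed. Among the 6 classes PDK4 was high in skeletal muscle, heart, liver and white fat, UCP3 had its highest mean in skeletal muscle and ANGPTL4 in white fat, and ACADM was abundant in every class outside the brain. CPT1B was highest in the heart, and CPT1A, among the 12 labels outside the brain, in the kidney medulla. KLF15 stood at single-digit mean levels in all 6 classes. The brain had the lowest linear class mean of PDK4, ACADM, PPARGC1A and KLF15; on the log2 scale of the tests, KLF15 was lower in heart and PPARGC1A lower in white fat than in brain, and neither difference passed.

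**Figure D1:**
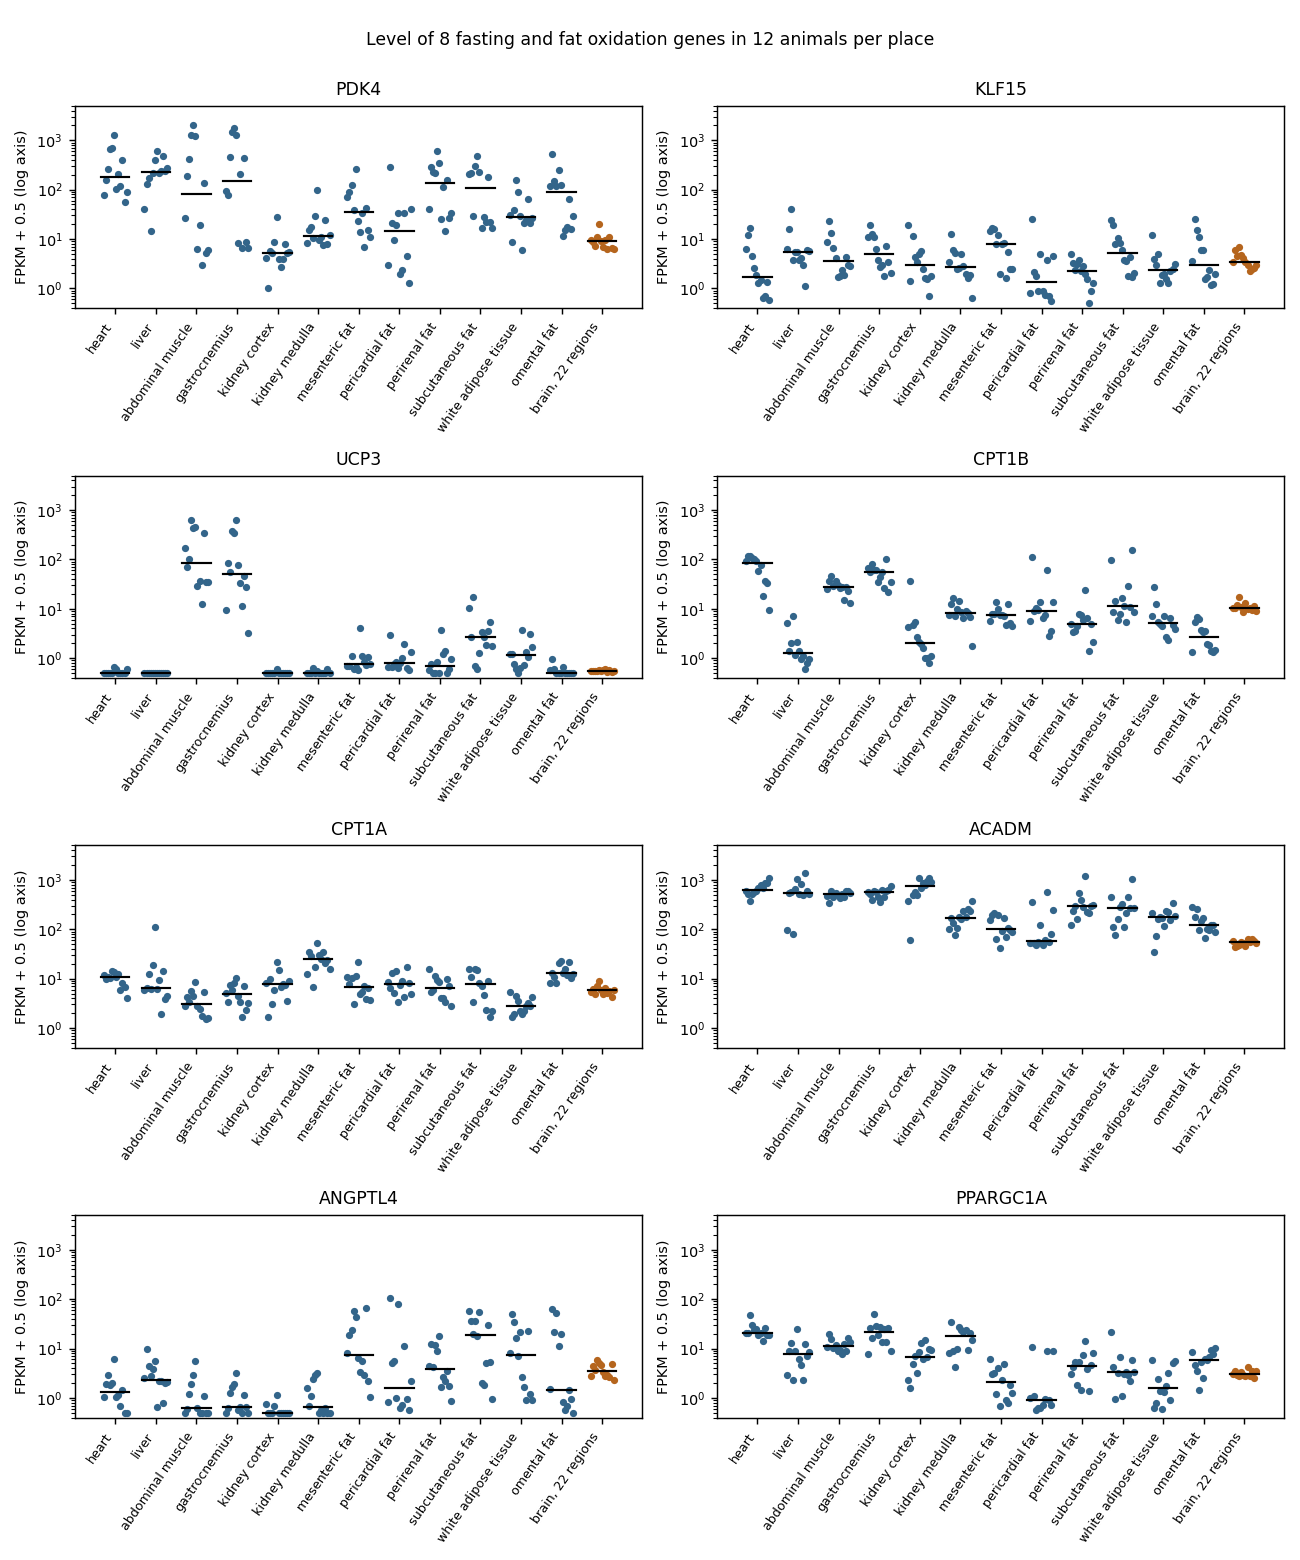
Level of each gene (FPKM + 0.5, log axis) in 12 labels outside the brain and in the mean of 22 brain regions. Each point is 1 of 12 animals and each bar the median. UCP3 is at 2.69 FPKM or more in all skeletal muscle libraries and at or near 0 in heart, liver and kidney, while PDK4 in abdominal muscle lies between 2.48 and 2072 FPKM.

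PDK4 (ENSPANG00000005011) averaged 462 ± 657 FPKM in skeletal muscle, 338 ± 363 FPKM in the heart, 251 ± 170 FPKM in the liver, 91.5 ± 82.2 FPKM in white fat, 13.3 ± 16.1 FPKM in the kidney and 8.80 ± 3.81 FPKM in the brain (SD, n = 12 each). Its range in skeletal muscle was 4.27 to 1901 FPKM with a median of 123 FPKM, so that its highest and lowest animals lay outside the whole range of the heart, 55.1 to 1258 FPKM with a median of 179 FPKM. On the log2(FPKM + 0.5) scale, paired by animal, PDK4 was 4.92 ± 0.29 higher in heart than brain, 4.67 ± 0.43 higher in liver than brain, 3.62 ± 0.71 higher in skeletal muscle than brain and 2.46 ± 0.24 higher in white fat than brain (SE). These differences passed limma's moderated test after Benjamini-Hochberg adjustment over all genes (adjusted p = 5.33e-10, 2.23e-07, 0.000159 and 7.34e-08) and were seen in 12, 12, 11 and 12 of 12 animals. Kidney minus brain was 0.30 ± 0.23 and did not pass (adjusted p = 0.25). The heart exceeded skeletal muscle by 1.30 ± 0.53 in 9 of 12 animals (adjusted p = 0.0364, 0.0155 to 0.233 over the alternatives), although the linear mean was higher in muscle. That call was lost when the animal of ZT12, ZT14, ZT16, ZT20 or ZT22 was left out, with 0.985 to 1.55 over all alternatives.

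UCP3 (ENSPANG00000004041), a carrier of the inner mitochondrial membrane related to the uncoupling protein of brown fat, averaged 194 ± 211 FPKM in abdominal muscle, range 11.8 to 627 FPKM and median 85.4 FPKM. In the gastrocnemius it averaged 139 ± 195 FPKM, range 2.69 to 616 FPKM and median 51.1 FPKM. The liver had no UCP3 read in any of 12 libraries, which allows a level of up to 0.215 to 0.967 FPKM per library (3 reads, counting error only). The heart had at most 1 read per library and none in 9 of 12. Skeletal muscle exceeded brain by 7.03 ± 0.47 (log2, adjusted p = 4.12e-10, limma) in 12 of 12 animals, and heart minus skeletal muscle was −7.08 ± 0.49 (adjusted p = 5.81e-09) with 0 of 12 animals higher in the heart. Both sizes depend on the pseudocount, since brain and heart are near 0: over the alternatives they were 6.12 to 9.05 and −9.17 to −6.15. White fat exceeded brain by 1.08 ± 0.155 in 12 of 12 animals (adjusted p = 6.54e-06), at 1.28 ± 1.08 FPKM against 0.0578 ± 0.0222 FPKM. In subcutaneous fat UCP3 reached 17.2 FPKM at ZT4 and 9.79 FPKM at ZT0, and skeletal muscle markers summed to 33696 and 628 FPKM in these libraries, against 16.5 FPKM in the lowest library of the depot. The part of muscle RNA in the fat values was not tested.

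CPT1B (ENSPANG00000015105), the muscle form of the enzyme that loads fatty acids onto carnitine, averaged 71.5 ± 39.4 FPKM in the heart, range 9.14 to 118 FPKM and median 85.2 FPKM. In skeletal muscle it averaged 40.6 ± 14.6 FPKM, and in the brain 10.5 ± 2.28 FPKM, so that 11 heart libraries and all brain values did not overlap, whereas the heart library of ZT22 lay within the brain's range of 8.12 to 16.6 FPKM. It was higher in heart than brain by 2.85 ± 0.28 (log2, adjusted p = 1.91e-07, limma) and in skeletal muscle than brain by 2.19 ± 0.135 (adjusted p = 1.32e-10), each in 12 of 12 animals. Liver minus brain was −2.38 ± 0.26 (adjusted p = 1.01e-06), with 1.55 ± 1.97 FPKM and a median of 0.782 FPKM in the liver. The liver libraries of ZT0 and ZT6, those with neuron markers, had 149 and 292 CPT1B reads (4.57 and 6.55 FPKM), against 3 to 30 reads in the other 10, and without the libraries of foreign markers the difference was −2.71 (adjusted p = 1.98e-08). Kidney minus brain was −0.81 ± 0.23 (adjusted p = 0.00431). White fat minus brain was 0.04 ± 0.13 and did not pass (adjusted p = 0.758). In humans CPT1B lies next to CHKB and read-through transcripts join them; how such fragments were counted here is not given in the sources used.

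CPT1A (ENSPANG00000020294), the form best known from liver, averaged 16.4 ± 30.4 FPKM in the liver, where 1 animal decided the mean: it was 111 FPKM at ZT10, against 1.45 to 18.8 FPKM in the other 11 animals and a median of 5.85 FPKM. The kidney averaged 16.3 ± 8.11 FPKM, with 24.8 ± 12.2 FPKM in the medulla, and the brain 5.42 ± 1.21 FPKM. CPT1A was higher in kidney than brain by 1.30 ± 0.215 (log2, adjusted p = 3.86e-05, limma), in 11 of 12 animals, and higher in heart than brain by 0.90 ± 0.14 (adjusted p = 2.06e-05), also in 11 of 12. Liver minus brain was 0.79 ± 0.34 (adjusted p = 0.0437, 0.0141 to 0.0852 over the alternatives), a call lost without the animal of ZT4, ZT8, ZT10, ZT12, ZT14 or ZT18, with 0.47 to 0.97 over all alternatives. Skeletal muscle minus brain was −0.38 ± 0.16 (adjusted p = 0.0338, 0.00647 to 0.103 over the alternatives), lower in 9 of 12 animals; it was lost without the animal of ZT2, ZT14, ZT16, ZT20 or ZT22, with −0.48 to −0.29 over all alternatives.

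ACADM (ENSPANG00000005881), the dehydrogenase of medium-chain fatty acids, was the most abundant of the 8 genes. It averaged 680 ± 202 FPKM in the heart, 608 ± 353 FPKM in the liver, 522 ± 79.0 FPKM in skeletal muscle, 441 ± 181 FPKM in the kidney and 223 ± 88.3 FPKM in white fat, against 53.3 ± 6.28 FPKM in the brain. The values of these 5 classes lay above the brain's range of 44.0 to 62.8 FPKM in every animal. The differences from brain were 3.71 ± 0.105 in heart, 3.36 ± 0.072 in skeletal muscle, 3.27 ± 0.305 in liver, 2.65 ± 0.182 in kidney and 1.71 ± 0.107 in white fat (log2), all in 12 of 12 animals (largest adjusted p = 2.48e-07, limma). The lowest liver values, 97.7 and 80.6 FPKM, were those of ZT0 and ZT6, the libraries with neuron markers.

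ANGPTL4 (ENSPANG00000024228), a secreted protein that blocks lipoprotein lipase, averaged 15.6 ± 14.6 FPKM in white fat, range 0.685 to 44.5 FPKM and median 15.3 FPKM, and 3.28 ± 1.15 FPKM in the brain, range 1.82 to 5.29 FPKM. White fat exceeded brain by 1.17 ± 0.35 (log2) in 8 of 12 animals (adjusted p = 0.0058, limma), and the lowest white fat animal, that of ZT22, lay below the whole brain range. ANGPTL4 was lower than in brain in the kidney (−1.88 ± 0.155), skeletal muscle (−1.57 ± 0.21) and heart (−1.02 ± 0.23; largest adjusted p = 0.000755), where it averaged 0.424, 0.738 and 1.25 FPKM. In the kidney cortex 9 of 12 libraries had no ANGPTL4 read. In kidney and skeletal muscle its mean was under 1 FPKM, so that it was tested there through the brain alone.

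PPARGC1A (ENSPANG00000005420), the coactivator PGC-1alpha that drives mitochondrial genes, averaged 23.1 ± 8.38 FPKM in the heart (range 13.9 to 46.5 FPKM), 16.5 ± 6.15 FPKM in skeletal muscle, 11.8 ± 5.56 FPKM in the kidney, 7.97 ± 6.28 FPKM in the liver and 2.64 ± 0.46 FPKM in the brain. It exceeded brain by 3.08 ± 0.14 in heart, 2.49 ± 0.155 in skeletal muscle and 1.82 ± 0.205 in kidney (log2), each in 12 of 12 animals, and by 1.32 ± 0.27 in liver, in 10 of 12 (largest adjusted p = 0.000334, limma). White fat minus brain was −0.18 ± 0.19 and did not pass (adjusted p = 0.381).

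KLF15 (ENSPANG00000026096), a zinc finger factor that in mouse drives amino acid breakdown and lipid use, averaged 8.003 ± 10.95 FPKM in the liver, range 0.623 to 40.9 FPKM and median 5.04 FPKM. Skeletal muscle averaged 6.06 ± 5.81 FPKM and the brain 3.40 ± 1.46 FPKM. Liver exceeded brain by 0.99 ± 0.27 and skeletal muscle exceeded brain by 0.76 ± 0.22 (log2; adjusted p = 0.00352 and 0.00433, limma), each in 10 of 12 animals. Heart minus brain was −0.31 ± 0.32 and did not pass (adjusted p = 0.375), and heart minus skeletal muscle was −1.07 ± 0.22 (adjusted p = 0.000502), lower in 11 of 12 animals.

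Counted over the genes, 5 of 7 tested were higher and 1 lower in heart than brain, where 36.5% of all genes tested were higher and 48.2% lower. Skeletal muscle against brain gave 6 higher and 2 lower of 8, where 40.8% and 48.8% of all genes were called. In liver against brain 5 were higher and 1 lower of 7, with 34.0% and 48.8% of all genes. For kidney against brain these counts were 3 and 2 of 7, with 31.7% and 45.5% of all genes, and for white fat against brain 4 and 0 of 8, with 42.6% and 42.3%. Heart against skeletal muscle gave 6 higher and 2 lower of 8, where 33.8% and 43.4% of all genes were called; without pairing by animal 4 of the 8 passed, and PDK4, ANGPTL4, CPT1B and KLF15 did not (adjusted p = 0.233, 0.228, 0.0979 and 0.0812). The median difference from brain over all genes was −0.25 in heart, −0.17 in skeletal muscle, −0.33 in liver, −0.20 in kidney and 0.01 in white fat (log2). UCP3 was not tested in liver, heart and kidney against brain, since its mean was under 1 FPKM in both. In skeletal muscle or white fat against brain, and in heart against skeletal muscle, it reached 1 FPKM in the higher class alone. ANGPTL4 entered heart against skeletal muscle through the heart alone, and there through the ZT10 animal. In kidney and in skeletal muscle against brain, ANGPTL4 entered through the brain alone. Calls of genes that enter this way are part of the counts and add no support to them.

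When the 12 labels and the brain were put in order of the mean log2 level, few neighbours differed. An exact two-sided sign-flip permutation test over the 12 animals, adjusted over 96 neighbour pairs of the 8 genes, separated 3 pairs, all with n = 12 and an adjusted p of 0.0469. The gastrocnemius exceeded subcutaneous fat in UCP3, subcutaneous fat exceeded the depot labelled white adipose tissue in UCP3, and the gastrocnemius exceeded abdominal muscle in CPT1B, with means of 53.6 ± 22.99 and 27.6 ± 9.23 FPKM and 11 of 12 animals in that direction. The subcutaneous libraries held more skeletal muscle RNA by markers, with a median sum of 529 FPKM against 30.3 FPKM in the depot labelled white adipose tissue; its part in the UCP3 order was not tested, and on the linear scale that pair did not pass (adjusted p = 0.0844, exact permutation test). For PDK4 the order was heart, liver, gastrocnemius, perirenal fat, subcutaneous fat, abdominal muscle, omental fat, mesenteric fat, white adipose tissue, kidney medulla, pericardial fat, brain and kidney cortex, and no neighbours differed. No neighbours differed for KLF15, CPT1A, ACADM, ANGPTL4 and PPARGC1A either; on the linear scale 2 of 96 pairs passed, the gastrocnemius against subcutaneous fat in UCP3 and mesenteric fat against brain in ACADM.

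Within the brain, UCP3 averaged 0.219 FPKM or less in every region. CPT1B ran from 2.38 FPKM in hippocampus over a median region of 7.82 FPKM to 26.4 ± 4.01 FPKM in ventromedial hypothalamus and 41.7 ± 25.6 FPKM in lateral hypothalamus. The same lateral hypothalamus libraries had the lowest regional means of PDK4, 1.83 FPKM, of CPT1A, 1.03 FPKM, and of ACADM, 26.4 FPKM. PDK4 was highest in the habenula at 16.9 FPKM, ACADM in the substantia nigra at 92.9 FPKM, KLF15 and ANGPTL4 in the amygdala at 7.97 and 8.64 FPKM, PPARGC1A in the olfactory bulb at 6.90 FPKM and CPT1A in the mammillary body at 10.9 FPKM. These extremes were read off the regional means and not tested.

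The second question was how the genes follow the 24 h day. In skeletal muscle PDK4 and UCP3 were highest at ZT6 to ZT10, and KLF15 was high earlier, at ZT2 to ZT4. KLF15 also passed the 24 h test in heart, kidney and brain. In the heart 6 of the 7 genes tested passed, where 42.4% of all genes did. Of these, 5 had peaks in the light, and ACADM peaked in the dark. No call in heart, kidney or brain was kept with the library component or a linear trend over ZT as a covariate. None of the heart calls was kept without the ZT4 animal. No gene passed in liver or white fat, where 0.0502% and 0.155% of all genes did.

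**Figure D2:**
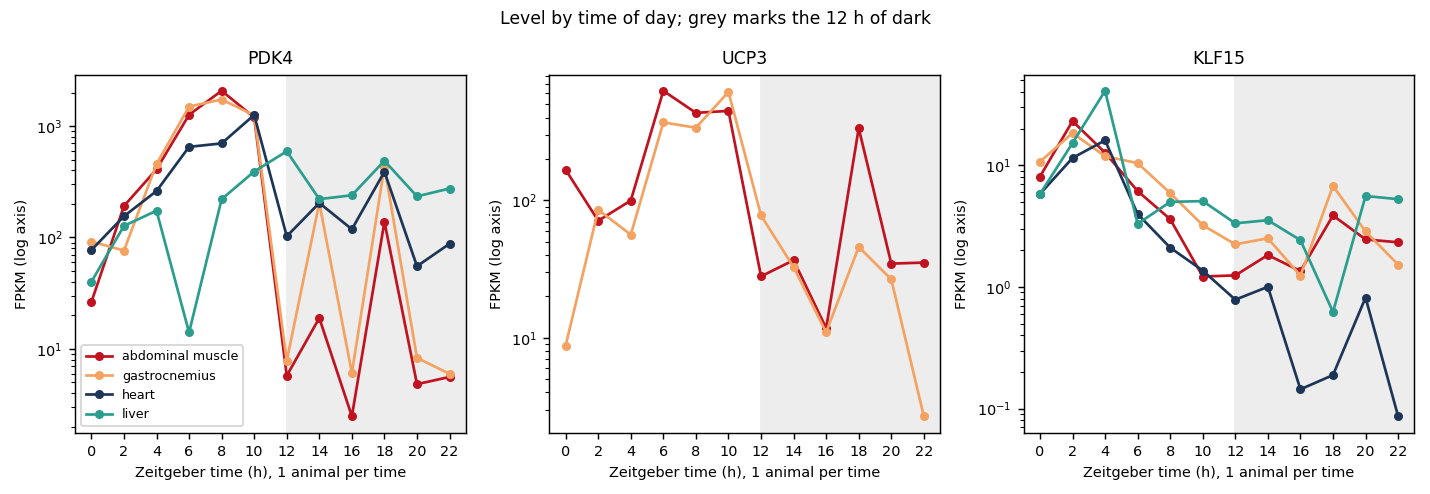
Level (FPKM, log axis) of PDK4, UCP3 and KLF15 by zeitgeber time in abdominal muscle, gastrocnemius, heart and liver (UCP3 in the muscles only), 1 animal per time, with the dark hours in grey. In both muscles PDK4 is at 1198 FPKM or more at ZT6, ZT8 and ZT10, and at 5.73 and 7.81 FPKM at ZT12, while KLF15 has its highest value at ZT2 in the muscles and at ZT4 in heart and liver.

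A cosine of 24 h was fitted per gene with limma, and its peak time, amplitude (log2) and fitted peak over trough were taken from it. In the heart 6 of 7 genes passed, where 42.4% of all genes tested did. In skeletal muscle 3 of 7 passed (18.9% of all genes), in the kidney 4 of 6 (28.7%) and in the brain 2 of 7 (30.8%). In the liver none of 7 passed (0.0502% of all genes), with 2 under an unadjusted p of 0.05, and in white fat none of 8 (0.155%), with 3 under 0.05. The heart's count was 0 without the ZT4 animal, whose heart library had the highest adipocyte marker sum, 640 FPKM, against 213 to 592 FPKM at other times, and was the one heart library counted as holding foreign markers. Among the 6 heart genes ANGPTL4 entered the test through the ZT10 animal alone. The count of skeletal muscle was 0 without the ZT6 animal, and that of kidney 0 without the animal of ZT6, ZT12, ZT14, ZT16 or ZT20.

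PDK4 in abdominal muscle was 26.3 FPKM at ZT0, 191 at ZT2, 409 at ZT4, 1262 at ZT6, 2072 at ZT8 and 1198 at ZT10, then 5.73 at ZT12, 18.9 at ZT14, 2.48 at ZT16, 138 at ZT18, 4.82 at ZT20 and 5.59 at ZT22. The gastrocnemius of the same animals had 1495, 1731 and 1250 FPKM at ZT6, ZT8 and ZT10, and 7.81, 204, 6.07, 432, 8.29 and 5.96 FPKM at the 6 times from ZT12 on. All animals of ZT4 to ZT10 lay above all dark animals in abdominal muscle, and in the gastrocnemius too, and the ZT18 animal was the highest of the dark in both. The fit over both muscles peaked at ZT6.72 with an amplitude of 3.31 ± 0.83 and a fitted peak 98.6-fold over the trough (adjusted p = 0.0394). In the heart PDK4 peaked at ZT8.59, 7.11-fold over the trough (amplitude 1.41 ± 0.38, adjusted p = 0.0325), with 1258 FPKM at ZT10 and 55.1 FPKM at ZT20. Skeletal muscle markers summed to 49047 FPKM in abdominal muscle and 14128 FPKM in gastrocnemius at ZT22, their lowest, against 240767 and 204782 FPKM at their highest; at ZT12, ZT16 and ZT20 they were 80882 to 204782 FPKM while PDK4 was 2.48 to 8.29 FPKM. The muscle call was kept when 3 of the 12 animals were left out in turn and lost without any of ZT0, ZT4, ZT6, ZT8, ZT10, ZT14, ZT16, ZT20 or ZT22, with amplitudes of 2.77 to 4.35 and adjusted p of 0.00915 to 0.459 over all alternatives. The heart call was lost without ZT2, ZT4, ZT6, ZT8, ZT10, ZT16 or ZT20, with 1.16 to 1.78 and 0.0279 to 0.661.

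In the other classes PDK4 did not pass. The liver had its lowest values at ZT6 and ZT0, 14.01 and 39.95 FPKM, and its highest at ZT12, 594 FPKM, with a fitted peak at ZT15.2 (adjusted p = 0.309). The 2 low libraries were those with neuron markers. The highest, of ZT12, held kidney markers, with the median proximal tubule and distal nephron markers at 15.3 and 29.4 FPKM. In the usual liver library these were at 0.0426 and 0.0140 FPKM. The part of such libraries in the profile was not tested. White fat had a fitted peak at ZT5.24 and a median of 78.7 FPKM, between 12.25 FPKM at ZT12 and 286.5 FPKM at ZT8 (adjusted p = 0.0836). In the kidney the ZT10 animal stood apart, with 28.01 FPKM in cortex and 97.1 FPKM in medulla, against medians of 4.68 and 10.8 FPKM.

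KLF15 in the heart was 5.80, 11.5 and 16.02 FPKM at ZT0, ZT2 and ZT4, and 0.144, 0.189, 0.817 and 0.0865 FPKM at ZT16, ZT18, ZT20 and ZT22. Its fitted peak was ZT4.13, 13.5-fold over the trough (amplitude 1.88 ± 0.34, adjusted p = 0.0176, limma). The median heart library had 10.5 KLF15 reads, and those of ZT16, ZT18 and ZT22 had 1 read each. Skeletal muscle peaked at ZT2.80, 5.99-fold over the trough (1.29 ± 0.26, adjusted p = 0.0217), with 23.1 and 18.4 FPKM in abdominal muscle and gastrocnemius at ZT2 and 1.35 and 1.24 FPKM at ZT16. The light animals of ZT0 to ZT6 lay above all dark animals in abdominal muscle, and so they did in the gastrocnemius. Brain KLF15 peaked at ZT5.61, 2.75-fold over the trough (0.73 ± 0.09, adjusted p = 0.00103), between 6.42 FPKM at ZT6 and 1.76 FPKM at ZT16. In the kidney the peak was ZT5.95, 3.95-fold over the trough (0.99 ± 0.28, adjusted p = 0.045).

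KLF15 in skeletal muscle was the only 1 of the 15 class calls that kept its side of the threshold with the library component as a covariate; it was lost with a linear trend over ZT, without the animal of ZT6 and without moderation (amplitude 0.80 to 1.47, adjusted p 0.00679 to 0.0951 over all alternatives). In brain the KLF15 call was kept without any animal and lost with either covariate (0.35 to 0.94, 0.000173 to 0.531). The heart call was lost without the ZT4 animal and with either covariate (0.65 to 2.40, 0.000652 to 0.666), and the kidney call without ZT2, ZT4, ZT6, ZT10, ZT12, ZT14, ZT16, ZT18 or ZT20 (0.23 to 1.23, 0.02 to 0.888). White fat KLF15 had a fitted peak at ZT3.89 and did not pass (adjusted p = 0.075), nor did the liver (ZT3.54, adjusted p = 0.241), where the ZT4 animal had 40.9 FPKM against 0.623 to 15.2 FPKM in the others.

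In every class the fitted peak of PDK4 came after that of KLF15: by 4.46 h in heart, 3.92 h in skeletal muscle, 3.72 h in kidney, 11.6 h in liver, 1.36 h in white fat and 2.44 h in brain. This is a description of fitted curves, many of which did not pass, and the lag was not tested.

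UCP3 was tested for rhythm in skeletal muscle and white fat, where it averaged 1 FPKM or more. In abdominal muscle it was 627, 433 and 448 FPKM at ZT6, ZT8 and ZT10, and 28, 36.7, 11.8, 335, 34.7 and 35.3 FPKM at the 6 dark times. In the gastrocnemius it was 369, 338 and 616 FPKM at ZT6 to ZT10 and 2.69 to 77.7 FPKM in the dark. In both muscles all 3 values of ZT6 to ZT10 lay above all dark values, of which ZT18 was the highest in abdominal muscle and ZT12 in the gastrocnemius. UCP3 in skeletal muscle peaked at ZT7.54, 15.1-fold over the trough (amplitude 1.96 ± 0.48, adjusted p = 0.0367, limma). The call was lost without ZT0, ZT6, ZT8, ZT10, ZT14, ZT16, ZT20 or ZT22 and with either covariate, with 1.41 to 2.50 and adjusted p of 0.0101 to 0.559 over all alternatives. White fat UCP3 did not pass (adjusted p = 0.516).

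CPT1B in the heart was 92.5, 118, 117, 106, 102 and 91.9 FPKM at the 6 times from ZT0 to ZT10 and 58.4, 78.5, 17.6, 35.4, 32.4 and 9.14 FPKM from ZT12 to ZT22, so light and dark values did not overlap. It peaked at ZT6.59, 5.45-fold over the trough (amplitude 1.22 ± 0.30, adjusted p = 0.0241, limma). Cardiomyocyte markers moved with it: their sum was 5108 to 10325 FPKM from ZT0 to ZT10 and 512 to 4787 FPKM from ZT12 to ZT22, lowest at ZT22. Their part in the CPT1B result was not tested. The call was lost without ZT4 or ZT16 (0.43 to 1.34, adjusted p 0.0023 to 0.672 over all alternatives), and with the library component as a covariate the fitted peak moved to ZT13.3. In skeletal muscle CPT1B did not pass (1.76-fold, adjusted p = 0.202). Kidney CPT1B peaked at ZT5.15, 3.99-fold (0.998 ± 0.273, adjusted p = 0.0404). Its highest value was 36.0 FPKM in the cortex of ZT2, a library with skeletal muscle markers of 69.5 FPKM against 0.371 to 5.89 FPKM at other times. That call was lost without ZT4, ZT6, ZT10, ZT12, ZT14, ZT16, ZT18 or ZT20, and without the libraries that held foreign markers (0.14 to 1.19, 0.0177 to 0.977).

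CPT1A passed in the heart alone among the 6 classes, 2.16-fold with a peak at ZT8.21 (amplitude 0.56 ± 0.15, adjusted p = 0.0364, limma). Heart values were 9.27 to 13.9 FPKM from ZT0 to ZT10, and 10.2, 11.8, 5.42, 7.84, 6.17 and 3.50 FPKM from ZT12 to ZT22, with the animals of ZT12 and ZT14 inside the light range. It was lost without ZT2, ZT4, ZT8, ZT10, ZT12, ZT16, ZT18 or ZT20 (0.41 to 0.64, 0.0167 to 0.661). The ZT10 animal had the highest CPT1A of the 12 in liver, abdominal muscle, gastrocnemius, kidney cortex, kidney medulla, mesenteric fat and omental fat. Its mesenteric library held lymphocyte markers, with a sum of 695 FPKM against 7.06 to 161 FPKM in the other 11, and adipocyte markers of 421 FPKM against 3163 to 9243 FPKM; their part in its CPT1A was not tested.

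ACADM ran the other way. In the heart it was lowest at ZT4, 367 FPKM, and highest at ZT22, 1100 FPKM, with a median of 639 FPKM. All 6 values from ZT12 on, 676 to 1100 FPKM, exceeded the 6 earlier ones, 367 to 602 FPKM. The fitted peak was ZT17.8, 1.93-fold over the trough (amplitude 0.48 ± 0.11, adjusted p = 0.0211, limma). The call was lost without the ZT4 animal (0.13 to 0.60, 0.00312 to 0.851 over all alternatives). In the kidney it peaked at ZT16.3, 2.81-fold (0.74 ± 0.20, adjusted p = 0.0406), with 60.6 FPKM in the cortex of ZT2, the library with muscle markers, against 377 to 1103 FPKM at other times. That call was lost without ZT0, ZT2, ZT6, ZT8, ZT12, ZT14, ZT16, ZT18 or ZT20 and without libraries of foreign markers (0.17 to 0.85, 0.0227 to 0.918). Skeletal muscle ACADM stayed within 393 to 649 FPKM and did not pass (1.21-fold, adjusted p = 0.516).

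ANGPTL4 in the heart was 5.64 FPKM at ZT10 and 0 FPKM at ZT20 and ZT22, with a median of 0.811 FPKM and of 5 reads. Its heart mean of 1.25 FPKM was 0.851 FPKM without the ZT10 animal, under the 1 FPKM that a gene needed to be tested, so it was tested through its highest animal and could not be tested without it. The fitted peak was ZT7.53, 4.43-fold over the trough (amplitude 1.07 ± 0.29, adjusted p = 0.033, limma), which is given as a description of these few reads. Of the 11 fits that left out another animal, those without ZT2, ZT4, ZT16 or ZT20 did not pass (0.77 to 1.83, 0.0327 to 0.666 over all alternatives). In the brain it peaked at ZT6.86, 1.82-fold (0.43 ± 0.11, adjusted p = 0.0299), between 5.29 FPKM at ZT6 and 1.82 FPKM at ZT22; the call was lost without ZT6, ZT8, ZT10, ZT16, ZT18 or ZT22 (0.13 to 0.58, 0.00526 to 0.747). White fat had the wider swing, 44.5 FPKM at ZT2 against 0.685 FPKM at ZT22 and a fitted 7.91-fold, but did not pass (adjusted p = 0.119).

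PPARGC1A passed in the kidney alone among the classes, with a peak at ZT15.1, 2.75-fold over the trough (amplitude 0.73 ± 0.20, adjusted p = 0.0429, limma). Kidney cortex had 1.06 to 7.95 FPKM from ZT0 to ZT10 and 5.555 to 14.4 FPKM from ZT12 to ZT22, with overlap. It was lost without ZT0, ZT4, ZT6, ZT8, ZT10, ZT12, ZT14, ZT16 or ZT20 and without libraries of foreign markers (0.39 to 0.87, 0.0295 to 0.88). In the heart the highest value, 46.5 FPKM, was that of ZT4, the library with the highest adipocyte markers, and the gene did not pass there (adjusted p = 0.108).

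**Figure D3:**
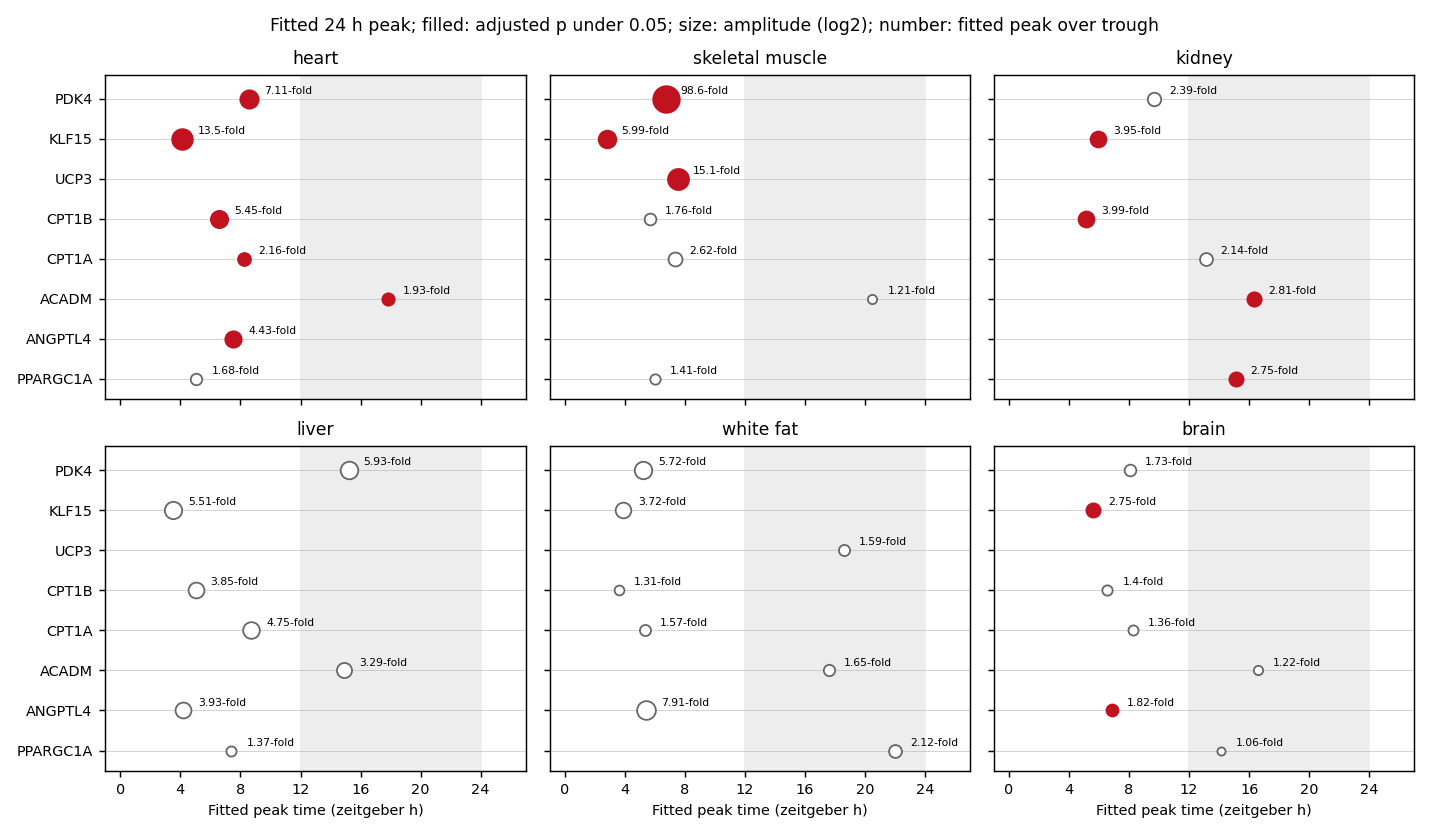
Fitted 24 h peak time (zeitgeber h) of each gene in 6 tissue classes, with dark hours in grey. A filled circle passed at an adjusted p under 0.05, circle size follows the amplitude (log2), and the number is the fitted peak over trough. PDK4 in skeletal muscle has the largest fold, 98.6, and filled circles in the dark are ACADM in heart and kidney and PPARGC1A in kidney.

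Fitted per tissue, the same test was passed by 16 of 83 pairs of gene and label outside the brain, where 9.83% of all such pairs of genes and labels did. Of these, 6 were the heart calls already given, since the heart class is a single label, and add nothing new. A further 5 were of omental fat, where time and make-up cannot be told apart. In these labels 42.4% and 37.7% of all genes passed. In abdominal muscle KLF15 and PDK4 passed (2 of 7; 6.68% of all genes), PDK4 176-fold with a peak at ZT6.41 (adjusted p = 0.0394). In the gastrocnemius KLF15 and UCP3 passed (2 of 7; 20.5% of all genes), UCP3 36.6-fold at ZT8.39 (adjusted p = 0.0264). Kidney cortex gave CPT1B alone (1 of 6; 14.5% of all genes; adjusted p = 0.0468). Each of these single-tissue calls was lost without moderation and when any of several single animals was left out. All but that of UCP3 were also lost without the filter. PDK4 in abdominal muscle was lost without ZT2, ZT4, ZT6, ZT8, ZT10, ZT14, ZT16 or ZT20 and with either covariate (amplitude 2.73 to 4.78, adjusted p 0.006 to 0.469 over all alternatives). UCP3 in the gastrocnemius was lost without ZT0, ZT6, ZT12 or ZT22 and with the library component (1.88 to 2.96, 0.0134 to 0.609). CPT1B in kidney cortex was kept without ZT2 or ZT22 and lost without any other animal and with either covariate (0.156 to 1.94, 0.0306 to 0.97). KLF15 was lost in abdominal muscle without ZT2, ZT4, ZT6, ZT8, ZT12, ZT16 or ZT20 and in gastrocnemius without ZT0, ZT2, ZT4, ZT6, ZT8, ZT10, ZT12 or ZT16. Over 22 brain regions 6 of 149 pairs passed, where 3.95% of all pairs did: KLF15 in lateral and medial globus pallidus, mammillary body and visual cortex (3.60- to 5.70-fold, peaks at ZT5.98 to ZT7.37), CPT1B in paraventricular nuclei (7.08-fold, ZT2.29) and ANGPTL4 in medial globus pallidus (3.52-fold, ZT8.19). In the 30 tissues outside these labels and the brain 24 of 169 pairs passed, where 7.27% of all such pairs of genes and tissues did. No alternatives were run for single brain regions or for these 30 tissues.

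Omental fat had 5 of 7 genes past the threshold, against 37.7% of all genes. ANGPTL4 was 1.01, 62.1, 21.4, 52.9, 10.9 and 19.3 FPKM at the 6 times from ZT0 to ZT10, and 0 to 0.932 FPKM from ZT12 to ZT22, with a peak at ZT5.42 and a fitted 78.9-fold (adjusted p = 0.0162, limma). KLF15 peaked at ZT4.77 (12.4-fold), PDK4 at ZT4.15 (15.9-fold), CPT1B at ZT6.61 (4.48-fold) and PPARGC1A at ZT19.2 (3.51-fold; largest adjusted p = 0.0214). These libraries changed in make-up over the same hours: adipocyte markers summed to 5788 to 8861 FPKM from ZT0 to ZT6 and to 591 to 3185 FPKM from ZT8 on, and smooth muscle markers to 182 to 1229 FPKM and to 6139 to 35741 FPKM. Time and make-up cannot be told apart in this depot. All 5 calls were lost with either covariate.

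Whether the classes differed in their rhythm was tested on the difference of their values within each animal. Heart minus skeletal muscle passed for 4 of 8 genes, where 28.5% of all genes did, and skeletal muscle minus kidney for 4 of 7 (15.3%). PDK4 differed in both: the swing in heart was smaller than in skeletal muscle (amplitude of the difference 2.17 ± 0.52, adjusted p = 0.028, limma), and that in skeletal muscle larger than in kidney (2.90 ± 0.67, adjusted p = 0.0341). UCP3 was called in both, but it was tested there through skeletal muscle alone: heart and kidney averaged 0.0319 and 0.0154 FPKM, so that these amplitudes, 1.92 ± 0.50 and 1.93 ± 0.46, restate that of skeletal muscle, 1.96 ± 0.48, and show no separate difference. CPT1B had the larger swing in the heart (0.83 ± 0.23, adjusted p = 0.0449), and ACADM followed the day in heart and kidney and not detectably in skeletal muscle (0.38 ± 0.11, adjusted p = 0.0497, and 0.70 ± 0.18, adjusted p = 0.0482). PPARGC1A differed between skeletal muscle and kidney (0.93 ± 0.21, adjusted p = 0.0347). Over the 13 other pairs of classes no gene passed, with 0.223% of all pairs of genes and comparisons called, so the passing of KLF15 in muscle and brain and not in liver or white fat is not shown to be a difference. All 8 differences were lost without libraries of foreign markers, without moderation, without the filter and with either covariate; adjusted p over all alternatives ran from 0.018 to 0.496 for PDK4 in heart minus skeletal muscle.

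The third question was whether PDK4 varied together with KLF15, ANGPTL4 and UCP3 between animals. In skeletal muscle PDK4 and UCP3 had a Pearson r of 0.92 (permutation p = 5e-05, adjusted 0.0006) and a Spearman rho of 0.916 (adjusted 0.00144) over 12 animals, and r was 0.884 without the animals of ZT8 and ZT16. PDK4 and ANGPTL4 had r = 0.838 (permutation p = 0.00052, adjusted 0.00312) and rho = 0.862 in the heart, and 0.73 without ZT8 and ZT10. In white fat the pair had r = 0.835 (permutation p = 0.00133, adjusted 0.00532) and rho = 0.804, and 0.93 without ZT8 and ZT12. PDK4 and UCP3 in white fat ran opposite (r = −0.749, permutation p = 0.00462, adjusted 0.0139; rho = −0.692), but r was −0.528 without ZT8 and ZT12, with a permutation p of 0.122, so that this relation rests on those animals; its partial r with the library component held constant was −0.809 (adjusted 0.0103). PDK4 and KLF15 passed in none of the 6 classes, with r of −0.188 to 0.584. The other partial r that passed were 0.87 for PDK4 and UCP3 in muscle, 0.877 and 0.738 for PDK4 and ANGPTL4 in heart and white fat, and 0.734 for PDK4 and KLF15 in liver (adjusted 0.0182), where r itself was −0.188, and −0.681 without the animals of ZT0 and ZT6, whose liver libraries held neuron markers. In all, 12 relations were computed, of which 4 passed by r and 5 by partial r. Heart ANGPTL4 reached the 1 FPKM needed through the ZT10 animal alone, with a mean of 0.851 FPKM without it. White fat UCP3 reached it through subcutaneous fat alone, at 3.84 FPKM against 0.508 to 0.880 FPKM in the other depots. The part of muscle RNA in that depot was not tested. PDK4 with heart ANGPTL4 and with white fat UCP3 are part of these counts and add no support to them. Each animal is also a time of day, so these relations do not separate animals from hours.

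**Figure D4:**
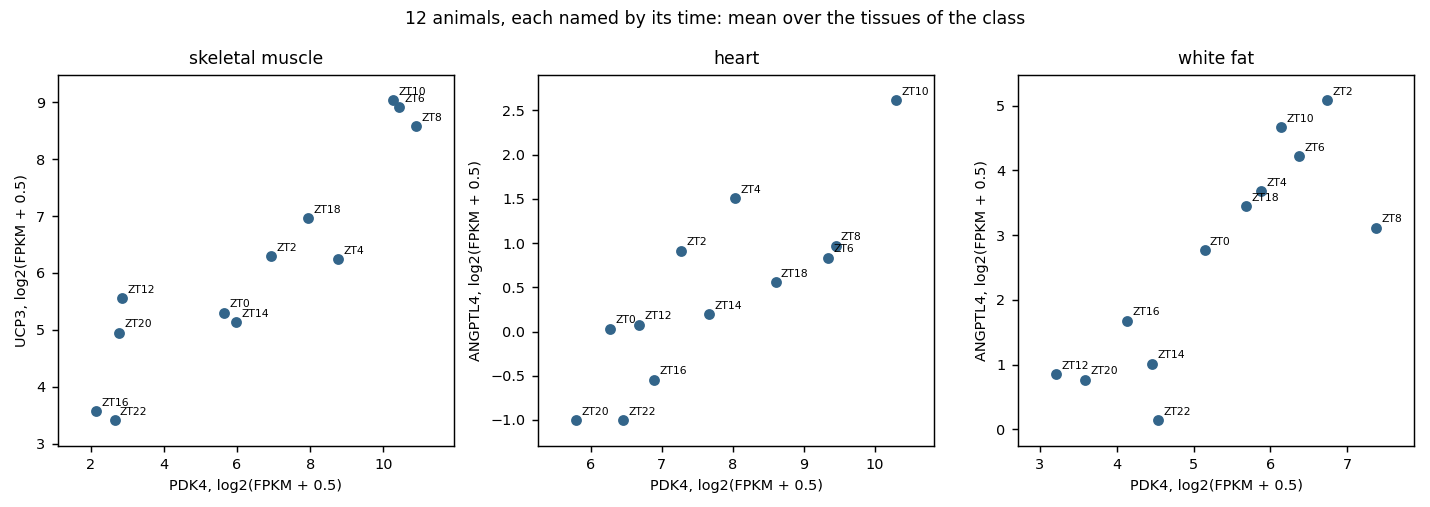
PDK4 against UCP3 in skeletal muscle and against ANGPTL4 in heart and white fat, log2(FPKM + 0.5), as the mean over the tissues of the class. Each point is 1 of 12 animals, named by its time. ANGPTL4 in heart reached a mean of 1 FPKM through the ZT10 animal alone. In skeletal muscle the animals of ZT6, ZT8 and ZT10 are highest in both genes, and r is 0.92; in white fat r is 0.835.

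White fat libraries differed in UCP1. UCP1, the uncoupling protein of brown fat, was at 100 FPKM or more in 8 of 60 white fat libraries, a split made after the values were seen and not tested. In those 8 libraries CPT1B had a median of 44.6 FPKM (4.47 to 157 FPKM), against 6.34 FPKM (0.887 to 26.7 FPKM) in the other 52. ACADM had a median of 455 FPKM (251 to 1204 FPKM) in the 8 and of 161 FPKM (34.4 to 535 FPKM) in the 52, and PPARGC1A 8.45 FPKM (2.39 to 20.8 FPKM) and 1.34 FPKM (0.0802 to 7.76 FPKM). The ranges overlapped for all 3 genes. The 8 libraries were of pericardial (ZT2, ZT16, ZT22), perirenal (ZT14, ZT20) and subcutaneous fat (ZT0, ZT16, ZT20). The 52 held every mesenteric library and every library of the depot labelled white adipose tissue. They also held the pericardial libraries with more lymphocyte than adipocyte markers. The part of depot and make-up in these differences was not tested. PDK4 had medians of 35.9 and 30.0 FPKM, and CPT1A of 4.01 and 5.16 FPKM. PPARGC1A was itself in the list of brown fat markers. CIDEA, another marker of that list, did not follow the split. Its median was 295 FPKM (28.1 to 1225 FPKM) in the 8 and 197 FPKM (0.455 to 1297 FPKM) in the 52. The split is thus one by UCP1 and not by CIDEA.

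**Figure D5:**
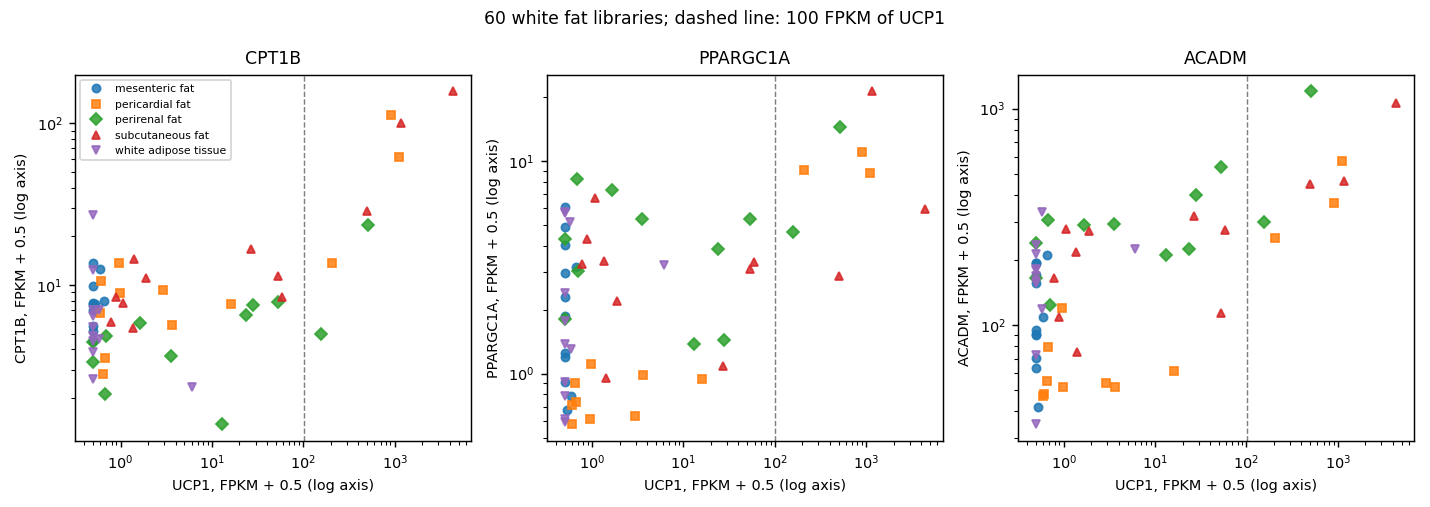
CPT1B, PPARGC1A and ACADM against UCP1 (FPKM + 0.5, log axes) in 60 white fat libraries of 5 depots. Each point is 1 library, and the dashed line marks 100 FPKM of UCP1. The 8 libraries right of the line reach 157 FPKM of CPT1B, and the 52 left of it 26.7 FPKM.

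In pericardial fat the 4 libraries with more adipocyte than lymphocyte markers (ZT2, ZT10, ZT16 and ZT22) had 32.5 to 288 FPKM of PDK4, 13.2 to 112 FPKM of CPT1B, 120 to 574 FPKM of ACADM and 3.17 to 25.2 FPKM of KLF15. The other 8 had 0.810 to 20.5, 2.34 to 10.1, 46.7 to 78.7 and 0.0572 to 1.68 FPKM, and for these 4 of the 7 genes past the filter the ranges did not overlap, where 14.3% of all genes were higher in all 4 libraries than in any of the 8 and 22.6% lower in all 4. ANGPTL4, at 1.70 to 107 FPKM in the 4 and 0.0740 to 5.09 FPKM in the 8, and PPARGC1A, at 0.115 to 10.5 and 0.0802 to 0.608 FPKM, overlapped, as did UCP3, which was under the filter (0.147 to 2.46 and 0.0744 to 0.529 FPKM). CPT1A ran the other way, at 2.92 to 5.94 FPKM in the 4 and 4.72 to 16.7 FPKM in the 8, with overlap. KLF15 and PPARGC1A, with medians of 0.354 and 0.317 FPKM in the 8, passed the filter through the 4 libraries where they were high. KLF15 is part of the count without overlap and adds no support to it. The libraries of ZT2, ZT16 and ZT22 were also among those with UCP1 at 100 FPKM or more, so the 2 splits share libraries.

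Other genes of the same pathways, in lists chosen by known function without the 8 genes, were counted in the same fits. For all these lists no alternatives are given, so how far their calls depend on the library component or on single animals is not shown. Fatty acid oxidation genes were abundant where ACADM was: of 21, 18 were higher than in brain in liver, 16 in heart, 17 in skeletal muscle, 17 in kidney and 18 in white fat, with median log2 differences of 2.53, 2.14, 1.22, 1.65 and 1.38. Over the day 7 of 20 passed in heart, 3 of 21 in skeletal muscle, 10 of 21 in kidney, 7 of 21 in brain and none in liver or white fat; the shares of all genes are given above. The 3 of skeletal muscle were ECI1, ETFB and ACADS, an isomerase, an electron carrier and the short-chain dehydrogenase. They peaked there at ZT8.43, ZT7.81 and ZT8.18 (3.77-, 4.69- and 3.56-fold, largest adjusted p = 0.0385, limma), and ACADM did not pass in skeletal muscle. In the heart these 3 passed with peaks at ZT5.79, ZT5.78 and ZT5.59, and ACADM peaked at ZT17.8. Of the 7 called in heart, 5 peaked in the light and 2 in the dark. In the kidney 7 of the 10 peaked in the dark, among them ETFDH at ZT16.6 and EHHADH at ZT16, and 3 in the light, among them ETFB at ZT5.26.

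Of 9 genes of the pyruvate dehydrogenase complex and its regulators, the target of PDK4, all were higher in skeletal muscle than brain and 7 in heart than brain. Of all genes 40.8% and 36.5% were higher in these comparisons. By time 6 passed in heart, 2 in skeletal muscle, 5 in kidney and 2 in brain. Of all genes 42.4%, 18.9%, 28.7% and 30.8% passed there. The phosphatase PDP1, which undoes the action of the kinases, peaked in skeletal muscle at ZT19.2 (3.85-fold, adjusted p = 0.0285, limma), while the kinase PDK2 peaked at ZT7.84 (2.45-fold, adjusted p = 0.0356). In the heart PDP1 peaked at ZT19.4 (1.57-fold, adjusted p = 0.028).

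Glucocorticoid-responsive genes passed in 5 of 7 cases in heart, 6 of 7 in skeletal muscle and 2 of 6 in kidney. In white fat 3 of 7 passed, in brain 6 of 7 and in liver none. The same 7 genes recur over these classes of the same animals, and the shares of all genes are given above. TSC22D3, a glucocorticoid-induced leucine zipper, peaked in heart at ZT4.42 (11.8-fold), in skeletal muscle at ZT5.85 (3.66-fold) and in white fat at ZT3.97 (4.99-fold, adjusted p = 0.00231, limma), and PER1 in white fat at ZT2.88 (12.1-fold, adjusted p = 0.00637). KLF15 had its fitted peaks at ZT2.80 to ZT5.95 in the 6 classes. Of the genes of amino acid breakdown under KLF15 in mouse, 4 of 6 passed in heart, 1 of 6 in skeletal muscle, 3 of 8 in kidney and 4 of 8 in brain; the alanine aminotransferase GPT passed in all 4 of these classes, with peaks at ZT4.99 (11.1-fold), ZT7.26 (5.85-fold), ZT4.27 (7.70-fold) and ZT6.49 (2.33-fold).

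Of the PPAR regulators and targets, 3 of 8 passed in heart, 3 of 9 in skeletal muscle, 4 of 10 in kidney and 3 of 10 in brain. Of all genes 42.4%, 18.9%, 28.7% and 30.8% passed in these classes, which holds for each list below. PLIN5, a lipid droplet protein, peaked in heart at ZT8.79 (3.86-fold, adjusted p = 0.0176, limma), and the nuclear receptor PPARA in kidney at ZT14.6 (3.01-fold, adjusted p = 0.0224). Partners of PGC-1 passed in 5 of 6 cases in heart and 4 of 6 in skeletal muscle, where ESRRA peaked at ZT8.20 (3.50-fold, adjusted p = 0.042, limma). In kidney and in brain 1 of 4 passed. Lipoprotein lipase and its regulators passed in 3 of 3 in skeletal muscle, among them LPL itself at ZT1.71 (3.02-fold, adjusted p = 0.0454, limma). They passed in 1 of 3 in heart, 2 of 5 in kidney and 1 of 3 in brain. Of lipolysis genes all 6 were higher in white fat than brain, where 42.6% of all genes were. By time 3 of 6 passed in heart, 1 of 6 in skeletal muscle, 2 of 5 in kidney and 2 of 6 in brain. The lipase PNPLA2 peaked in heart at ZT5.37 (6.88-fold, adjusted p = 0.0211, limma). Ketone body genes passed in 2 of 5 in heart, 1 of 5 in skeletal muscle, 2 of 5 in kidney and 1 of 6 in brain, genes of malonyl-CoA control in 3 of 5, 2 of 5, 1 of 4 and 0 of 4, and other uncoupling proteins in none; in liver and white fat the glucocorticoid list in white fat was the one list with a call.

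Across the mean levels of all 64 tissues, the genes most like each of the 8 were read from 16216 genes by Pearson r on log2(FPKM + 0.5), as a description. UCP3 was closest to the muscle genes AMPD1 (0.98), MYBPH (0.978) and CACNG1 (0.977). ACADM was closest to ETFA, which takes up its electrons (0.921), DLD (0.909) and FASTKD2 (0.90). PDK4 was closest to HSDL2 (0.814), ABCC9 (0.793) and ADGRF5 (0.784), and of the 8 genes to ACADM (0.673). KLF15 was closest to FGFRL1 (0.781), TXNRD2 (0.779) and GAMT (0.77). CPT1B was closest to MYH7B (0.795), TCAP (0.769) and DCUN1D2 (0.759), and CPT1A to TGOLN2 (0.82), WDFY1 (0.788) and SLC39A9 (0.777), while CPT1A and CPT1B had an r of −0.40 with each other. ANGPTL4 was closest to SREBF1 (0.776), LRP1 (0.732) and FASN (0.728), and PPARGC1A to USP2 (0.751), ETFRF1 (0.725) and SGCB (0.724).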

How the data were processed

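Polyadenylated RNA was sequenced from stranded libraries, per the labels' protocols. The authors deposited 1 table of FPKM values with 767 library columns and 64 tissues. STAR, featureCounts and DESeq2 appear, with no version or role, in the submitters' processing notes. The genome build is not given in the sources used here, nor is the use of strand in counting. Reads per gene were recovered from the FPKM steps (whole within 0.01 in 26546 of 26546 rows above 0) and used for depth only; intervals and limits cover counting error only.

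Values were taken as log2(FPKM + 0.5), and genes with a mean under 1 FPKM were left out. The differences are on this scale and understate changes of low genes. Class values were means of the logs over the tissues of an animal; class levels in FPKM are linear means. A 24 h cosine was fitted with limma 3.58.1 (R 4.3.3, variance trend) and tested with the moderated F, with Benjamini-Hochberg adjustment over all genes of the comparison at 0.05. Level differences were paired by animal, since the labels give 1 animal per time to all tissues. Neighbours in the order of levels were compared with exact sign flips (4096, smallest p 0.000488), and correlations with 100000 permutations (numpy 2.4.6, pandas 2.3.3, scipy 1.17.1). The fits were tested on simulated data. A library counted as holding foreign markers where the median gene of another tissue's list reached 10 FPKM and was 20 times above the usual level of its tissue.

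The genes and lists were chosen with earlier results of these data known. Named besides the 8 genes were the 3 most alike across tissues and, per list and class, up to 3 with the smallest p. Alternatives were the pseudocount, the filter, scaling, moderation, covariates, left-out libraries or animals and the pairing. The UCP1 and pericardial splits, and leaving out libraries that match another animal or the pericardial depot, were chosen after seeing the data.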

Additional observations from a re-analysis of the deposited data

Results flagged for a closer look

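Each of these 8 results is a difference in 24 h rhythm between classes of the same animals, tested on the difference itself with limma and given as the amplitude of the difference (log2). For PDK4 it was 2.17 in heart minus skeletal muscle and 2.9 in skeletal muscle minus kidney, where the class amplitudes were 1.41 in heart, 3.31 in skeletal muscle and 0.627 in kidney. The heart minus skeletal muscle result was lost without the animal of ZT2, ZT4, ZT6, ZT8 or ZT16 (1.76 to 2.78 over all alternatives), and the other without ZT0, ZT2, ZT6, ZT8, ZT10, ZT12, ZT16 or ZT20 (2.36 to 3.72).

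For UCP3 the amplitudes were 1.92 in heart minus skeletal muscle and 1.93 in skeletal muscle minus kidney. Heart and kidney averaged 0.0319 and 0.0154 FPKM and the gene was tested through skeletal muscle alone, so both values restate its muscle rhythm (1.96) and are no separate finding. For ACADM the amplitudes were 0.384 and 0.696, each kept without 2 of the 12. CPT1B had 0.833 in heart minus skeletal muscle, kept without 4 of the 12, and PPARGC1A 0.926 in skeletal muscle minus kidney, lost without ZT0, ZT2, ZT6, ZT12, ZT14 or ZT16. What lies behind these differences was not tested.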

How the results depend on the processing

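The counts of the 8 genes depended on several settings. Over animals left out in turn, calls were 0 to 6 in heart (6 with all animals), 0 to 5 in skeletal muscle (3), 0 to 4 in kidney (4), 1 to 3 in brain (2), 0 to 3 in white fat (0), 5 to 20 over single labels (16), 0 to 5 for heart minus skeletal muscle (4) and 0 to 4 for skeletal muscle minus kidney (4). With the library component as a covariate they were 0 in heart, kidney, brain and both differences and 1 in skeletal muscle and over single labels. With a linear trend over ZT they were 0 in heart, skeletal muscle, kidney, brain and both differences and 1 over single labels. Without moderation they were 2 in heart, 1 in brain, 7 over single labels and 0 in skeletal muscle, kidney and both differences. Without the filter they were 1 in skeletal muscle, 1 in brain, 10 over single labels and 0 in kidney and both differences, and with a filter of 5 FPKM 0 in brain. Without libraries of foreign markers they were 0 in heart, kidney and both differences and 1 in white fat, where that setting drops the 4 pericardial libraries rich in adipocyte markers, and with omental fat added to white fat 3. Without libraries that match another animal, kidney had 1 and skeletal muscle minus kidney 0. A pseudocount of 0.1 left 1 in each difference. The replicate block is the pairing by animal: without it, heart minus skeletal muscle levels gave 4 calls against 8.

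Fitted peaks moved to the other side of the day with the library component as a covariate for CPT1B in heart (amplitude 0.429, ZT13.3), KLF15 in kidney (0.228, ZT13.4), CPT1B in kidney (0.198, ZT17.5) and ACADM in kidney (0.212, ZT9.31), and with the linear trend for KLF15 in kidney (0.258, ZT12.2). PDK4 and KLF15 in liver had a partial r of 0.734. The cause was not tested. Depth limits UCP3 outside muscle, KLF15 in heart and ANGPTL4 in heart and kidney, which rest on few reads.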

Other observations

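For the other 30 tissues no alternatives were run, and 7.27% of all pairs of genes and tissues passed the 24 h test there. ANGPTL4 passed in 7 of 16, among them adrenal medulla (19.9-fold, ZT5.95), adrenal cortex (14.9-fold, ZT7.51) and stomach fundus (11.3-fold). CPT1B passed in 7 of 30, among them ileum (9.33-fold, ZT6.2), a tissue in which the ZT0 and ZT4 libraries held neuron markers. PDK4 passed in antrum (14.8-fold, ZT6.42), and PPARGC1A in adrenal cortex, pancreas and stomach fundus, with peaks between ZT18.6 and ZT19.8. Adrenal cortex and stomach fundus each had calls of ANGPTL4, CPT1B, KLF15 and PPARGC1A. The share of all genes in these single tissues is not given here. KLF15 had its highest tissue mean in the iris, 26.2 FPKM, with a median of 7.59 FPKM and 177 FPKM at ZT8. That iris library stood apart by markers: the median smooth muscle marker was at 2613 FPKM, against 104 FPKM in the usual library of the tissue, and the median macrophage marker at 578 FPKM, against 15.1 FPKM. ANGPTL4 had its highest tissue mean in the cornea, 41.04 FPKM, above the highest fat depot, subcutaneous fat at 21.95 FPKM, and CPT1A in the cecum, 51.9 FPKM.

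The ZT18 animal stood above both its neighbours in time in 46 of 83 pairs of gene and label outside the brain (55.4%), against 38.1% of all such pairs of genes and labels, a count made after the values were seen and not tested. For PDK4 this held in 11 of 12 labels. The ZT14 animal stood further above the share of all genes (40 of 83, 48.2%, against 28.3%), and the ZT10 animal was above it too (36 of 83, 43.4%, against 34.2%); each of the other animals had 12 to 29 of 83. At ZT12, UCP3 had its depot's highest value in mesenteric fat (3.66 FPKM), perirenal fat (3.18 FPKM) and the depot labelled white adipose tissue (3.28 FPKM).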
